A study of Mus musculus with 8 samples.

Results

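The gene models described here are the protein-coding genes of mouse chromosome 14 whose symbol is *Gm* followed by a number, with a mean above 0.1 TPM, a transcript abundance scaled by length and library, in the 2 wildtype or the 2 *Setdb1* cKO samples. The deposited table of 22603 genes held 170 such models, and every protein-coding *Gm* row of chromosome 14 in it met the rule. Members were thus chosen by their measured TPM levels: 145 models were above 0.1 TPM in both genotypes, 24 in the cKO only and 1 in wildtype only, so that models which entered through the cKO alone had to be higher there, and the counts of members given below are descriptions of this set. The models closest to the limit were *Gm5089*, with 0.152 TPM as the mean of its higher genotype (wildtype), and *Gm281*, with 0.272 TPM (cKO), and no candidate lay below it.

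RNA-seq was performed on early-to-mid pachytene spermatocytes sorted by flow cytometry, with 500 cells for each genotype and Smart-seq2 amplification, in 2 wildtype samples and 2 *Setdb1* cKO samples. The wildtype mice were C57BL/6J males at postnatal day 15. The cKO males, also on the C57BL/6J background, were *Setdb1* flox/- with the *Ngn3-Cre* transgene and a ROSA26-EYFP Cre reporter, at day 15 or older. *Ngn3-Cre* acts in male germ cells from the spermatogonial stage, no transgene or reporter is stated for the wildtype mice, and the methods describe a purity stain of sorted wildtype cells. The labels do not say that the 2 samples of a genotype came from separate animals, so the p-values cover the variation between 2 libraries, and this may be technical. *Setdb1*, which encodes an H3K9 methyltransferase and is mutated in the cKO, was at 56.9 and 59.3 TPM in the wildtype pair and at 28.8 and 37.2 TPM in the cKO pair, a log2 fold change of -0.81 ± 0.27 (SE) that did not pass the threshold used throughout (limma on log2(TPM + 1), Benjamini-Hochberg adjusted p under 0.2 over 19462 protein-coding genes; adjusted p = 0.269).

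Mouse chromosome 14 carries large arrays of recently duplicated genes. The best known of them is the α-takusan family, named after a Japanese word for many, which was described in mouse brain, descends in part from the scaffold gene *Dlg5* and affects synapses through the postsynaptic scaffold PSD-95. SETDB1 deposits H3K9me3 on repeated and silenced sequence in several cell types, and in male meiosis the X and Y chromosomes are silenced at pachynema, while many multicopy genes of the sex chromosomes and autosomes are switched on after meiosis in spermatids.

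Translated proteins of the models (GENCODE M21, GRCm38) grouped 148 of the 170 into 3 families at 50% identity, with 101, 44 and 3 members, 17 further models stood alone and 5 had no protein to compare. At 70% identity the family of 101 separated into 84 models, some of which RefSeq names as α-takusan-like, and 17 models related to *1700049E17Rik1*. The family of 44 includes models that RefSeq names as disks large homolog 5-like and is called Dlg5-like here. Of the 84 α-takusan-like models 81 lay at chr14:3030002-7960636, and 3 at chr14:19415857-19602581. The Dlg5-like models lay at chr14:41278805-44750340 (38) and at chr14:51361756-51717183 (6), and the *1700049E17Rik1* group lay among them (15 and 2). Within each group the copies were close: the median identity of a protein to its closest fellow member was 99.0% in the α-takusan-like, 98.3% in the Dlg5-like and 94.4% in the *1700049E17Rik1* group.

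The 5′ ends of 1 model from each group are shown as examples of how the groups compare in sequence. RefSeq windows of 300 bases around the start of the gene (GRCm38.p6) were matched to 44 α-takusan-like, 29 Dlg5-like and 6 *1700049E17Rik1* group models. Where windows overlapped by at least 150 bases, the median identity was 95.9% (53.7% to 100%) over 430 of 946 pairs of α-takusan-like models, 95.9% (75.4% to 100%) over 316 of 406 pairs of Dlg5-like models. It was 95.4% (94.7% to 100%) over 3 of 15 pairs of the *1700049E17Rik1* group. Between groups the medians were 72.4% to 74.4% and the highest value 78.0%. Some α-takusan-like windows were less alike than windows of different groups. *Gm5795* (chr14:3188034-3188333, + strand) stands for the α-takusan-like, *Gm5800* (chr14:51717083-51717382, - strand) for the Dlg5-like and *Gm5799* (chr14:43543381-43543680, + strand) for the *1700049E17Rik1* group, and the capitals mark the bases that align with the cAMP response element of *Gm5799*:
Gm5795: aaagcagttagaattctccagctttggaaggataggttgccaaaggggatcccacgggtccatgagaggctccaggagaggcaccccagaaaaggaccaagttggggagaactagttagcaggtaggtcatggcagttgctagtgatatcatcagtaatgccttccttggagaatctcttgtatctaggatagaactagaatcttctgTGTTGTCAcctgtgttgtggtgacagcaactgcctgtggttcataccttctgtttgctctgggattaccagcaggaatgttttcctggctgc
Gm5800: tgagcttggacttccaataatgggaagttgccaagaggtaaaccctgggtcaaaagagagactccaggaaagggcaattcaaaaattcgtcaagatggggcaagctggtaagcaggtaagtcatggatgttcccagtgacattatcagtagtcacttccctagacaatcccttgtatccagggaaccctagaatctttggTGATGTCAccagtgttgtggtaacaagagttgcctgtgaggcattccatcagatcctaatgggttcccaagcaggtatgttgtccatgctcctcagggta
Gm5799: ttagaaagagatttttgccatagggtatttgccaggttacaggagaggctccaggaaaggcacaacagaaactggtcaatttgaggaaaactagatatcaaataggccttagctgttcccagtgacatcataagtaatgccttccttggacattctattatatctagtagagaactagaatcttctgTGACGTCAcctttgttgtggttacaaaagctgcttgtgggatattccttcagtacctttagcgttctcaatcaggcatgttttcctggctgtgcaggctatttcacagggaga

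The palindrome TGACGTCA, a binding site of CREB and CREM family factors, was present in the windows of *Gm5799* and *Gm8126*. These are 2 of 6 in their group, but the 2 windows were identical where they overlapped and so hold copies of 1 sequence. The palindrome was in 0 of 44 α-takusan-like and 0 of 29 Dlg5-like windows and in 1.9% of 27025 RefSeq promoter windows. The aligned position lay inside 28 of 44, 29 of 29 and 3 of 6 windows. There 27 of 28 α-takusan-like windows read TGTTGTCA, 21 of 29 Dlg5-like windows read TGATGTCG and 7 read TGATGTTG. The Dlg5-like window of *Gm5800* differed from most of its group there, with TGATGTCA, which *Gm5798* of the *1700049E17Rik1* group also had. The window of the neighbour of *Gm5800*, *Gm17079* (chr14:51695270-51695569, - strand) read TGATGTCG. The MYB site TAACGG was in 0 windows of the 3 groups (2.7% of all windows), and the TATA box TATAAA was in 0, 0 and 1 (14.2% of all windows). Both strands were searched, a match is no evidence of binding, and the absence of these letters in a window says nothing about the factors.

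In the *Setdb1* cKO many of these models rose and none fell past the threshold. Of the 170 models 50 were higher in the cKO and 0 lower, against 3.48% higher and 1.11% lower among all genes tested, while 4.60% changed in either direction. Of the 50, 32 were α-takusan-like, 16 Dlg5-like and 2 belonged to no family, and 0 came from the *1700049E17Rik1* group. At an unadjusted p under 0.05 there were 82 higher models and 1 lower model, against 2643 of the 19462 genes tested in either direction. The median log2 fold change of the 170 was 1.18, against 0.08 over all genes, and without the 17 models listed at 0 in both wildtype samples it was 1.11 over 153 models. The cKO pair lay above the wildtype pair without overlap in 110 models (as in 26.3% of all genes) and below it in 10 (18.1% of all genes). Among the 145 models above 0.1 TPM in both genotypes 36 were higher. Leaving out cKO replicate 1 left 26 higher models, with 534 higher among all genes. Leaving out cKO replicate 2 gave 99 higher and 5 lower, with 2586 higher and 3837 called among all genes (678 and 895 with all samples). In these fits 1 library stands for the cKO and the wildtype pair alone gives the spread. With either wildtype sample left out no gene passed.

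**Figure D1:**
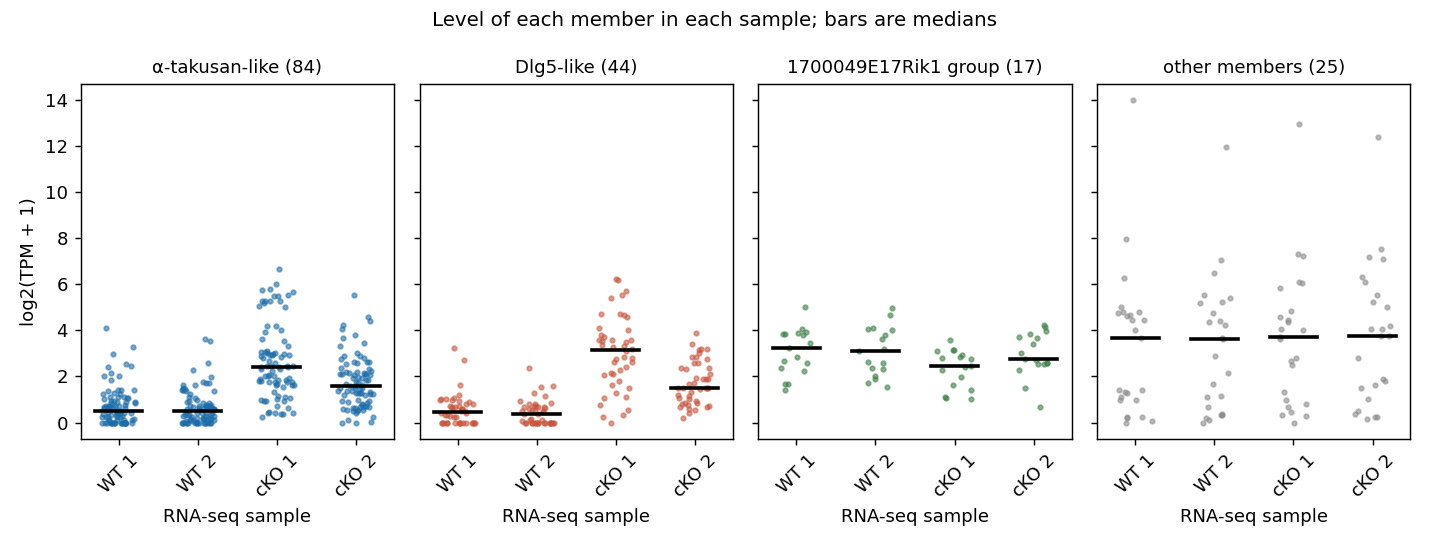
Level of each member in each of the 4 RNA-seq samples, on a log2(TPM + 1) axis, in 4 panels by sequence group, with 1 point per gene model and a bar at the median. The 84 α-takusan-like and 44 Dlg5-like models have medians of 0.422 and 0.413 TPM and of 0.370 and 0.302 TPM in the wildtype samples, and of 4.39 and 2.03 TPM and of 7.88 and 1.86 TPM in cKO 1 and cKO 2, while the 17 models of the *1700049E17Rik1* group have their lowest median in cKO 1.

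The α-takusan-like models were low in wildtype pachytene cells and higher in the cKO as a group. Together they gave 93.8 and 78.7 TPM in the wildtype pair and 1006 and 331 TPM in the cKO pair, which is 7.76 times as much in the mean. Reads shared among near-identical copies may be assigned to any of them. Their division within the group affects the sum only through transcript length, which differs between copies and by which TPM is scaled. The sum may also gain or lose reads shared with genes outside the group. Of the 84 models 32 were higher and 0 lower, the median log2 fold change was 1.29, and both cKO samples were above both wildtype samples in 61.

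*Gm5795* (chr14:3188255-3196681, + strand, 5 exons) was at 3.11 and 1.19 TPM in the wildtype pair and at 54.5 and 22.8 TPM in the cKO pair, a mean 18.0 times as high (log2 fold change 3.60 ± 0.57 (SE), adjusted p = 0.0683). *Gm21103* (chr14:6296365-6304843, - strand, 5 exons) had the highest level of the group in the cKO and rose from 4.87 and 10.8 TPM in the wildtype pair to 102 and 44.7 TPM (3.05 ± 0.51, adjusted p = 0.0738). *Gm3029* (chr14:3931756-3940185, + strand, 4 exons) rose from 3.44 and 3.91 TPM in the wildtype pair to 31.2 and 15.8 TPM (2.32 ± 0.47, adjusted p = 0.120). In all 3 genes the cKO samples lay above the wildtype samples without overlap, and cKO 1 was the highest sample. *Gm3029* did not pass without cKO replicate 1 (adjusted p = 0.220).

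Other members of the group were listed at or near 0 in wildtype. *Gm3149* (chr14:4317283-4325721, + strand) was listed at 0 in both wildtype samples and reached 37.5 and 8.95 TPM in the cKO pair (adjusted p = 0.0695), and *Gm8108* (chr14:4110526-4132784, + strand) was listed at 0 in both and reached 2.77 and 2.18 TPM (adjusted p = 0.0912). *Gm3752* (chr14:7466362-7483762, - strand) was at 0 and 0.148 TPM in the wildtype pair and at 6.51 and 4.99 TPM in the cKO pair (log2 fold change 2.65 ± 0.41, adjusted p = 0.0683). *Gm3453* (chr14:5970744-5979137, - strand) was at 0.178 and 0.161 TPM against 17.3 and 5.71 TPM (3.24 ± 0.59, adjusted p = 0.0912). The 2 cKO samples differed little in *Gm3752* and *Gm8108* and more in *Gm3149* and *Gm3453*.

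The group also held models at the other end. *Gm3755*, chosen after its values were seen, had 16.4 and 11.4 TPM in the wildtype pair, among the highest wildtype levels of the group, and 10.6 and 11.8 TPM in the cKO pair (log2 fold change -0.27). It was 1 of 5 α-takusan-like models with a negative fold change, none of which passed the threshold. *Gm3012* and *Gm10413*, chosen after their values were seen, carried identical values in all 4 samples (0.0915, 0.633, 44.2 and 5.27 TPM, adjusted p = 0.167), and no window of 75 bases told their transcripts apart from other genes. There were 3 such pairs among the 170 models, and counted once for identical values the higher models were 49.

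The Dlg5-like models showed the same direction from a lower start. Their sum was 32.6 and 21.2 TPM in the wildtype pair and 591 and 138 TPM in the cKO pair, 13.6 times as much in the mean, with a median log2 fold change of 1.82. Of the 44 models 16 were higher and 0 lower, the cKO pair exceeded the wildtype pair without overlap in 39, and 9 were listed at 0 in both wildtype samples. The sum was 22 times the wildtype mean in cKO 1 and 5.15 times in cKO 2.

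*Gm5800* (chr14:51711643-51717183, - strand, 5 exons) was at 0.180 and 0 TPM in the wildtype pair and at 50.9 and 8.11 TPM in the cKO pair (log2 fold change 4.32 ± 0.83, adjusted p = 0.102). It was the most distinct called copy, with 98.9% of its 75-base windows found in no other gene's transcripts and 78.5% protein identity to its closest member, *Gm4181*. *Gm8094* (chr14:43071142-43076643, - strand, 5 exons) was at 1.08 and under 0.001 TPM in the wildtype pair and at 16.1 and 8.01 TPM in the cKO pair (3.11 ± 0.59, adjusted p = 0.102). *Gm10375* (chr14:43602627-43608013, - strand) and *Gm17654* (chr14:43573843-43579146, - strand) were listed at 0 in both wildtype samples and reached 40.9 and 6.20 TPM and 3.30 and 1.84 TPM in the cKO pair (adjusted p = 0.114 for each). In these 4 genes too the genotypes did not overlap and cKO 1 was the higher cKO sample, and without it *Gm8094* did not pass (adjusted p = 0.209).

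The highest Dlg5-like levels in the cKO were those of *Gm3486* and *Gm10376*, named here after their values were seen. *Gm3486* (chr14:41484232-41489485, - strand) was listed at 0 in the wildtype pair and had 73.4 and 7.07 TPM in the cKO pair (adjusted p = 0.129). *Gm10376* (chr14:43010188-43015628, - strand) rose from 0.982 and 0.377 TPM in the wildtype pair to 72.2 and 6.18 TPM (adjusted p = 0.191, and 0.206 without cKO replicate 1). The cKO samples lay far apart in both. Of the called models 15 of the 16 Dlg5-like and 28 of the 32 α-takusan-like were higher in cKO 1 than in cKO 2. Among all 19462 genes tested 11204 were higher in cKO 1.

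**Figure D2:**
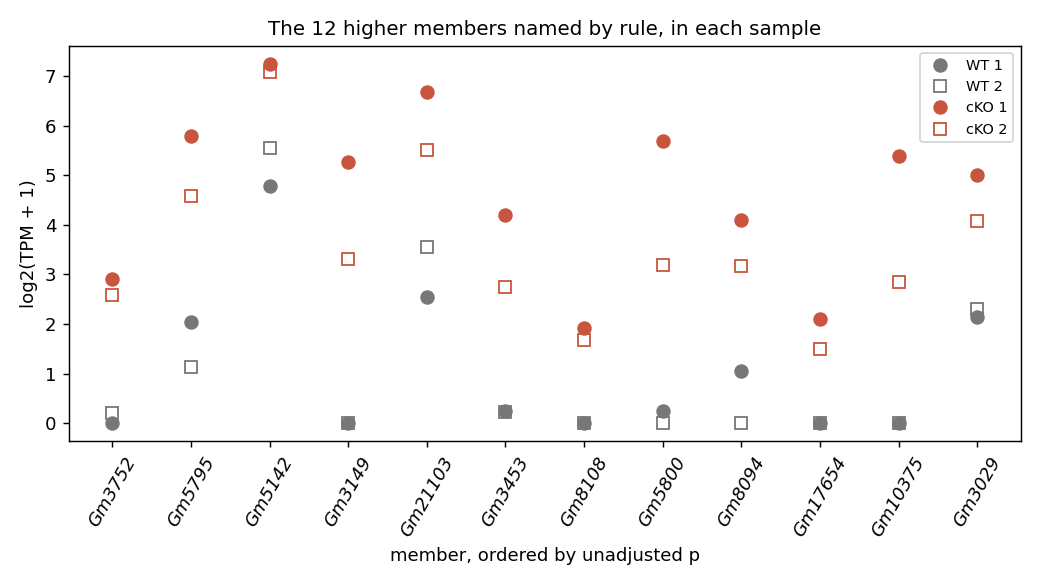
Level of the 12 higher members with the smallest p in each sample, on a log2(TPM + 1) axis, wildtype in grey and cKO in red, replicate 1 as filled circles and replicate 2 as open squares. Both cKO samples are above both wildtype samples in each of the 12, and cKO 1 is above cKO 2 in each.

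The *1700049E17Rik1* group did not rise with its neighbours. These genes were expressed in wildtype pachytene cells, with a median of 8.34 and 7.74 TPM a gene, and summed to 164 and 170 TPM in the wildtype pair and to 81.4 and 140 TPM in the cKO pair, 0.662 times the wildtype mean. Of the 17 models 0 were higher and 0 lower, 1 had an unadjusted p under 0.05, the median log2 fold change was -0.48, and both cKO samples lay below both wildtype samples in 6 and above in 2. *Gm5930* (chr14:44330442-44338584, - strand), chosen after its values were seen, was at 31.8 and 30.1 TPM in the wildtype pair and at 2.09 and 16.7 TPM in the cKO pair (log2 fold change -2.11 ± 0.77, adjusted p = 0.308). *Gm5799*, whose 5′ window is printed above, and likewise chosen, was at 13.3 and 15.1 TPM against 4.31 and 9.51 TPM (-1.03 ± 0.48, adjusted p = 0.417). *Gm3371*, also chosen in this way, was at 12.8 and 13.0 TPM against 1.12 and 12.1 TPM (-1.40 ± 0.83, adjusted p = 0.533). In all 3 cKO 1 was the lowest sample. Against cKO 1 alone, a fit that called 3837 of all genes, their adjusted p was 0.0221, 0.116 and 0.0434, which is no support for a fall of the group.

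Members of this group lay among the Dlg5-like genes. For each of the 17 members the nearest Dlg5-like model lay on the opposite strand. Their starts were a median of 30267 bases apart (16102 to 207136). The Dlg5-like model had the higher log2 fold change in each case, but 43 of all 44 Dlg5-like models had a positive fold change. Some Dlg5-like models, such as *Gm8247*, were nearest to more than 1 member, so these comparisons are not separate. The group itself was split off after the values were seen. Next to *Gm5799* (-1.03) lay *Gm17654* (1.80), next to *Gm5930* (-2.11) lay *Gm8229* (2.41) and next to *Gm3371* (-1.40) lay *Gm8232* (2.54). Inside chr14:41278805-44750340 15 of 38 Dlg5-like and 0 of 15 *1700049E17Rik1* group models were higher, with medians of 1.82 and -0.49. The difference between the groups was not tested. Gene bodies of opposite strands overlapped in 6 pairs of members, each with *Gm5624*, *Gm7247* or *Gm5622* (named for this overlap) of the *1700049E17Rik1* group, and the library was not stranded, so reads from shared exonic sequence there could not be told apart.

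**Figure D3:**
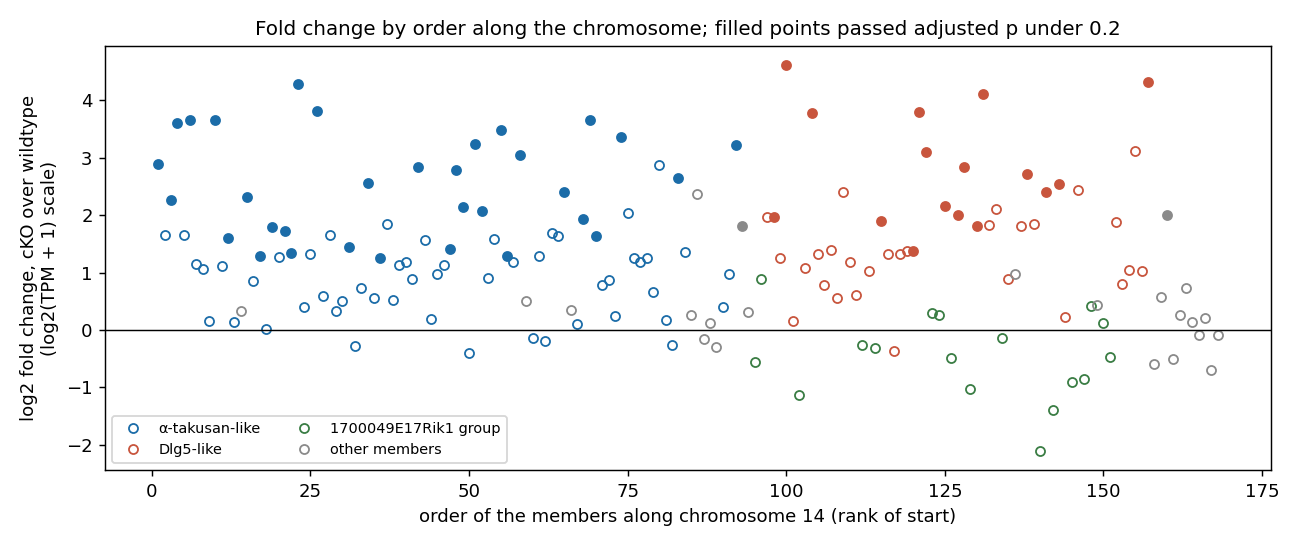
Log2 fold change of cKO over wildtype (log2(TPM + 1) scale) of the 168 members with a position, ordered by their start along chromosome 14 and coloured by sequence group, with filled points for members past an adjusted p of 0.2. Green points of the *1700049E17Rik1* group lie mostly below 0 among the red Dlg5-like points of the same stretch, which are mostly above 1.

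The members outside these groups varied, and 2 of the 17 without a family were higher. *Gm5142* (chr14:59158503-59178749, - strand, 2 exons), whose windows were 100% unique, rose from 26.4 and 46.1 TPM in the wildtype pair to 151 and 135 TPM (log2 fold change 2.0 ± 0.32, adjusted p = 0.0683), with the cKO samples close to each other. *Gm9780* (chr14:26027282-26042711, - strand), chosen after its values were seen, rose from 15.0 and 11.3 TPM in the wildtype pair to 64.9 and 36.3 TPM (1.82 ± 0.38, adjusted p = 0.122, and 0.212 without cKO replicate 1), but 0.6% of its windows were unique, so other genes may share its reads. The small family of *Gm2916*, *Gm3618* and *Gm10251* lies inside the α-takusan-like array, and 0 of its 3 models passed, with 0 at an unadjusted p under 0.05. *Gm10251* had 31.7 and 41.1 TPM in the wildtype pair against 27.3 and 78.2 TPM in the cKO pair (adjusted p = 0.837), and the family as a whole summed to 69.8 and 97.3 against 65.7 and 178 TPM. The wildtype samples lay between the cKO samples in *Gm10251* and in the sum, and cKO 2 was the higher cKO sample in all 3 models.

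The 3 most abundant models did not pass the threshold. *Gm21738* (chr14:19415857-19418930, - strand) had 16511 and 3986 TPM in the wildtype pair and 7956 and 5441 TPM in the cKO pair (log2 fold change -0.30 ± 0.79, adjusted p = 0.924), and with it the 170 models summed to 17364 and 4761 TPM in the wildtype pair and 10301 and 6863 TPM in the cKO pair. Without it they summed to 852 and 775 TPM against 2345 and 1422 TPM. *Gm21750* was at 248 and 133 TPM against 160 and 182 TPM (adjusted p = 0.950), and *Gm26661* at 77.1 and 89.7 TPM against 68.1 and 145 TPM (adjusted p = 0.852). Near the lower limit *Gm5089* was at 0.0350 and 0.270 TPM against 0 and 0.168 TPM and *Gm281* at 0.184 and 0.158 TPM against 0.235 and 0.309 TPM.

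Spermatid markers were highest in cKO 1, as were the α-takusan-like and Dlg5-like sums, while several other marker lists did not follow genotype. All 6 pachytene markers were detected in every sample and summed to 2588 and 3037 TPM in the wildtype pair and 1666 and 1887 TPM in the cKO pair. Their median log2 fold change was -0.44. The lowest was that of *Piwil1*, the gene of a piRNA-binding protein of pachytene cells, at 445 and 488 TPM against 27.2 and 190 TPM (-2.67, adjusted p = 0.221). The others were *Sycp1* (-0.90), *Hormad1* (-0.49), *Sycp3* (-0.40), *Mybl1* (-0.39) and *Spag6l* (-0.05), and *Spag6l* was highest in cKO 2. The 10 spermatid markers summed to 15.7 and 20.1 TPM in the wildtype pair, 913 TPM in cKO 1 and 45.6 TPM in cKO 2. *Acrv1*, *Izumo1*, *Tssk1*, *Tssk2*, *Prm1*, *Prm2*, *Spaca1* and *Tnp2* were above both wildtype samples in both cKO samples. *Acrv1*, with the smallest p, was at 1.01 and 1.05 TPM in the wildtype pair against 159 and 8.10 TPM. In cKO 2 *Catsper3* (0.486 TPM) and the transition protein gene *Tnp1* were not above both. *Tnp1* was listed at 0 in wildtype 1 and cKO 2 and was at 1.82 TPM in wildtype 2 and 79.6 TPM in cKO 1. Leydig cell markers (5) summed to 91.6 and 240 TPM against 760 and 108 TPM and spermatogonial markers (7) to 205 and 279 TPM against 516 and 315 TPM, whereas 6 Sertoli cell markers gave 1272 to 1500 TPM in the 4 samples, 3 macrophage markers 11.1 to 16.7 TPM and 3 peritubular and endothelial markers 14.3 to 29.0 TPM. Most of the Sertoli sum was *Clu*, at 1151 and 999 TPM in the wildtype pair against 1169 and 1067 TPM. Most of the Leydig sum was *Insl3*, at 49.8 and 145 TPM against 557 and 71.2 TPM. None of these lists had a member past the threshold, with 6 spermatid, 2 pachytene and 1 spermatogonial marker at an unadjusted p under 0.05.

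The library with the highest spermatid marker sum, cKO 1, was thus also the one with the highest α-takusan-like and Dlg5-like sums and the lowest *1700049E17Rik1* group sum. The Leydig and spermatogonial sums were highest in cKO 1 too. So were, by little, the Sertoli (1500 against 1458 TPM in wildtype 1) and macrophage sums (16.7 against 16.5 TPM in wildtype 2). The pachytene sum was highest in wildtype 2 and the peritubular and endothelial sum in wildtype 1. The part of the markers in these results was not tested. In cKO 2 alone the spermatid marker sum was 2.54 times the wildtype mean (50.9 times in cKO 1). The α-takusan-like sum was 3.85 times and the Dlg5-like sum 5.15 times the wildtype mean, and the *1700049E17Rik1* group sum was 0.837 times that mean. Most of the wildtype spermatid sum was *Spaca1*, at 9.83 and 11.2 TPM in the wildtype pair and 16.8 TPM in cKO 2. The spermatid ratio in cKO 2 thus depends largely on this gene, and whether the ratios differ was not tested. Without cKO replicate 1, 16 α-takusan-like and 9 Dlg5-like models were higher. In bulk samples a larger number of expressing cells and more RNA per cell cannot be told apart.

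**Figure D4:**
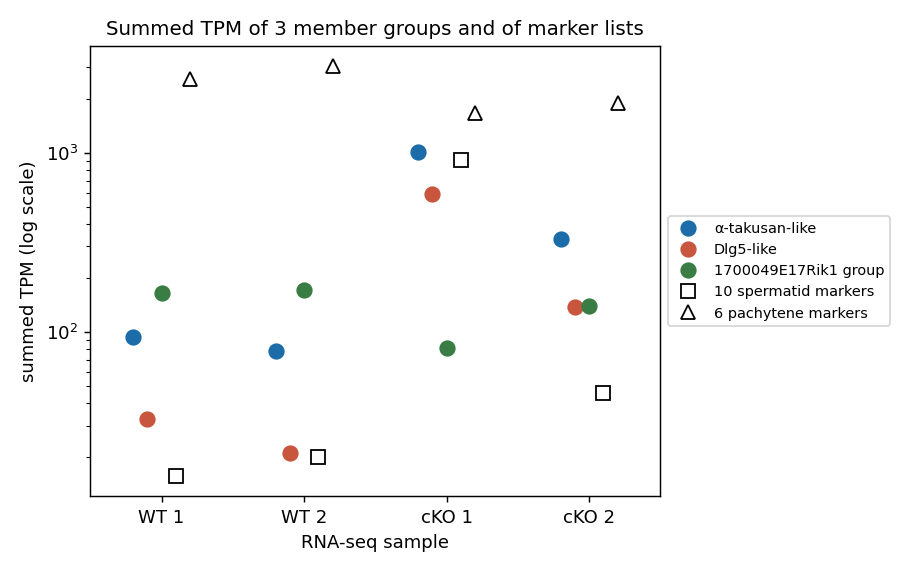
Summed TPM of 3 sequence groups (filled circles), of 10 spermatid markers (open squares) and of 6 pachytene markers (open triangles) in each RNA-seq sample, on a log axis and offset sideways for legibility. The α-takusan-like, Dlg5-like and spermatid sums are all highest in cKO 1, with 1006, 591 and 913 TPM, and the spermatid sum falls to 45.6 TPM in cKO 2, where the α-takusan-like sum is 331 TPM.

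Sequence identity limits how far a value can be tied to 1 copy. A median of 17.3% of the 75-base windows of an α-takusan-like transcript and of 26.2% of a Dlg5-like transcript occurred in no other gene's transcripts, against 55.3% in the *1700049E17Rik1* group, and 10 of 168 models had no such window. Of all members with at least 50% unique windows 4 of 35 were higher, with a median log2 fold change of 0.26, against 46 of 133 with fewer, with a median of 1.29. Among the 10 α-takusan-like and Dlg5-like models with at least 50% unique windows 3 were higher (*Gm5800*, *Gm8237* and *Gm8232*, the last 2 named after their values were seen), with a median log2 fold change of 1.99, and their sum went from 5.91 and 1.76 TPM in the wildtype pair to 126 and 23.0 TPM. Among the 22 models with under 5% unique windows 6 were higher, with a median of 1.22. *Gm8237* (chr14:5857918-5880382, - strand, 71.9% unique) was at 0.814 and 0.0788 TPM in the wildtype pair and at 7.70 and 3.36 TPM in the cKO pair (2.14 ± 0.53, adjusted p = 0.167, and 0.264 without cKO replicate 1).

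**Figure D5:**
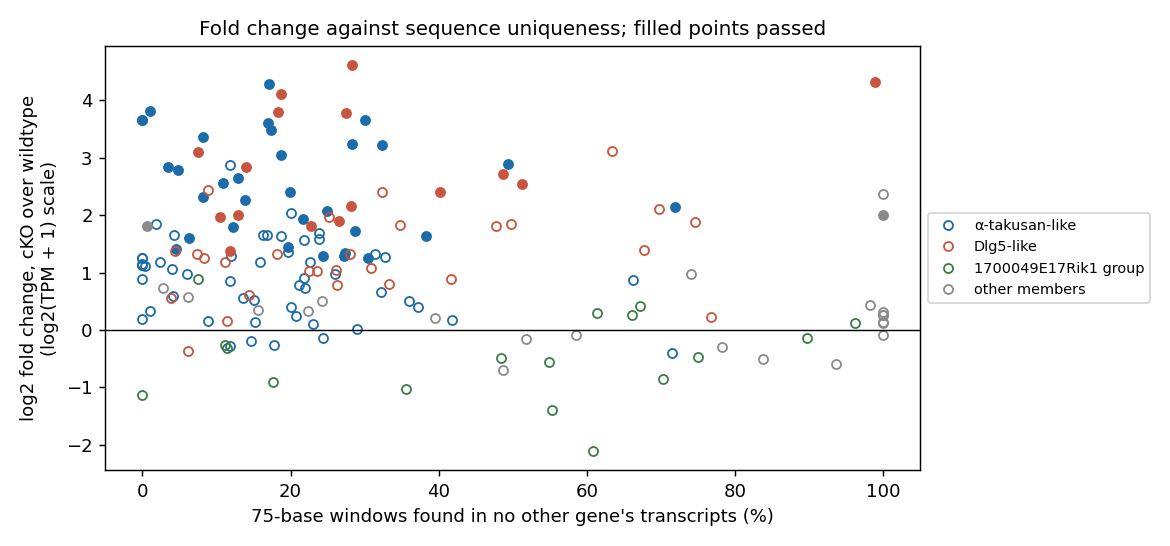
Log2 fold change of each member (log2(TPM + 1) scale) against the percentage of its 75-base windows that occur in no other gene's transcripts, coloured by sequence group, with filled points past an adjusted p of 0.2. Most α-takusan-like and Dlg5-like models lie below 50% unique windows, and *Gm5800* rises at 98.9%.

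Genes under other names whose proteins fell into the same groups were measured too. The 3 relatives of the Dlg5-like group were all higher. *1700001F09Rik* was at 0.554 and 0.659 TPM in the wildtype pair and 231 and 36.8 TPM in the cKO pair (log2 fold change 5.87 ± 0.80, adjusted p = 0.0505). *AC161453.1* was listed at 0 in the wildtype pair, with 33.6 and 6.17 TPM in the cKO pair (adjusted p = 0.102), and *BC061237* was at 0.436 and 0 TPM against 82.2 and 6.94 TPM (adjusted p = 0.152). Of the 4 relatives of the *1700049E17Rik1* group 0 passed and 2 had an unadjusted p under 0.05. *1700049E17Rik1* itself was at 34.8 and 33.2 TPM against 13.1 and 23.9 TPM (adjusted p = 0.353). *1700024B05Rik* was at 46.8 and 48.6 TPM against 10.8 and 34.0 TPM (adjusted p = 0.35). Of the 3 relatives of the α-takusan-like group 0 passed and 1 had an unadjusted p under 0.05, and *2610042L04Rik* was at 0.852 and 0.146 TPM against 2.17 and 2.45 TPM (adjusted p = 0.282).

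Neither the scaffold gene *Dlg5* nor the other *Dlg* genes compared passed the threshold. *Dlg5* on chromosome 14 was at 5.48 and 5.26 TPM in the wildtype pair and 4.33 and 10.9 TPM in the cKO pair (adjusted p = 0.875). Of the 5 *Dlg* genes 0 passed and 1 had an unadjusted p under 0.05: *Dlg2*, at 2.90 and 2.97 TPM against 9.01 and 19.9 TPM (log2 fold change 1.88 ± 0.52, adjusted p = 0.2003), which passed under several other settings. The *Speer* genes, multicopy testis genes mostly on chromosome 5 that encode glutamate-rich proteins of male germ cells, had 3 of 10 higher and 0 lower, with a median log2 fold change of 1.58. *Speer4f2* went from 0.467 and 0.181 TPM in the wildtype pair to 19.7 and 7.31 TPM (adjusted p = 0.0833). *Speer4c* went from 2.82 and 0 TPM in the wildtype pair to 38.4 and 12.7 TPM (adjusted p = 0.139, and 0.3002 without cKO replicate 1). *Speer4f1* went from 0.320 and 0.432 TPM in the wildtype pair to 16.9 and 3.89 TPM (adjusted p = 0.160).

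The same fit gave calls elsewhere in the genome. The other 628 protein-coding genes of the chromosome had 20 higher and 9 lower, with a median log2 fold change of 0.07, and 611 *Gm* models of the other autosomes had 22 higher and 2 lower, with a median of 0.09. On the sex chromosomes 37 of 72 X-linked and 18 of 91 Y-linked *Gm* models were higher and 0 and 2 were lower, with medians of 2.46 and 1.43. Of 4 named multicopy sex-linked genes 1 was higher, *Slxl1* on the X, which went from 0 and 0.631 TPM in the wildtype pair to 84.4 and 11.6 TPM (log2 fold change 4.68 ± 0.90, adjusted p = 0.102). *Ssty2* and *Sly* on the Y were at 1.40 and 0 against 35.4 and 3.97 TPM (adjusted p = 0.244) and at 19.1 and 8.87 against 122 and 11.2 TPM (adjusted p = 0.597). The shares of genes called in these lists were not tested against each other.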

How the data were processed

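RNA-seq signal was analysed as the authors deposited it, a normalized TPM per gene and sample. The authors ran kallisto in single-end mode on 75-base reads against a GRCm38 transcriptome and summed transcripts to genes with sleuth. The columns summed to 1109725, 942186, 996166 and 946174, so the values were treated as a signal and not as plain TPM. Read counts were not used here, and depth per sample and counting error are unknown. The deposited columns of genotype means and of the authors' own test (estimates, errors, p- and q-values) were not used, and the ChIP-seq samples were not analysed here.

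The 19462 protein-coding genes averaging over 0.1 TPM in a genotype were fitted on log2(TPM + 1), a scale that understates the change of low genes, using the R package limma (version 3.58.1, R version 4.3.3; lmFit and eBayes with trend, prior degrees of freedom 4.76), Benjamini-Hochberg adjustment and a threshold of 0.2. The fit was tested on simulated data. Alternatives were other pseudocounts, filters, biotypes, scalings, eBayes settings and thresholds, the replicate number as a block, and leaving out each sample.

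Proteins were translated from GENCODE M21 coding sequences on the GRCm38 genome and grouped by BLASTP (BLAST 2.17.0) with single linkage at 50% identity over 50% of the shorter protein (alternative 70%). The split at 70% was chosen for the text after the values were seen. Uniqueness is the share of 75-base windows of a model's transcripts found in no other gene's transcripts. Positions were found for 168 members. RefSeq windows reach from 250 bases before to 50 after the start, and 85 of the 101 matched by symbol lay within 1000 bases of the GENCODE start and were kept. Plots used matplotlib (3.10.9) under Python (3.11.15).

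Members and lists were chosen with earlier results of these data known. Named are *Setdb1*, the 12 higher and up to 8 lower members of smallest p that passed, did not overlap between genotypes and had at least 1 TPM in the higher genotype, the 5 most abundant members, the 2 closest to the level limit, and up to 3 genes of each comparison list. All other members named were chosen after their values were seen.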

Additional observations from a re-analysis of the deposited data

How the results depend on the processing

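The count of higher members differed between settings, as did that over all genes, 678 in the fit reported. It was 25 with quantile normalization (13 α-takusan-like, 10 Dlg5-like; 430 over all genes), 23 with eBayes without trend (14 and 8; 392) and 7 at an adjusted p under 0.1 (6 and 0; 214), and stayed between 41 and 66 under the other settings that kept all samples (628 to 1091). Leaving out 1 sample gave 0 to 99 higher members (0 to 60 α-takusan-like, 0 to 35 Dlg5-like) and 0 to 5 lower ones. The count was 0 without either wildtype sample, where the lone wildtype sample is assumed to vary like the cKO pair. Of the 50 higher members 24 remained without cKO replicate 1 and all 50 when cKO replicate 2 was left out. The members' median log2 fold change was 2.24 with a pseudocount of 0.1 and stayed between 0.84 and 1.56 otherwise. The median over all genes was 0.17 after rescaling to autosomal genes and -0.11 with quantile normalization. A rescaling that leaves out the 20 autosomal genes reaching 3000 TPM in a sample, added after seeing the data, gave 46 higher members.

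With the replicate number as a block 66 members were higher and 1, *Gm5930*, was lower, with 1091 of 1409 calls over all genes being higher (678 of 895 without the block). The numbers share only a label: replicate differences (1 minus 2) of the 2 genotypes correlated at 0.025 across genes.

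Among named genes the sign changed for *Gm21750* after rescaling to autosomal genes (0.04) and with quantile normalization for *Gm21738* (0.03), *Dlg5* (-0.06) and *D830030K20Rik* (-0.24). When single samples were left out, log2 fold changes crossed 0 for *Gm21738* (-1.33 to 0.72), *Gm21750* (-0.53 to 0.36), *Gm5089* (-0.23 to 0.06), *Gm26661* (-0.29 to 0.80), *Gm10251* (-0.39 to 1.10), *Gm5624* (-2.04 to 0.23), *Sly* (-0.21 to 3.13), *Dlg5* (-0.26 to 0.91) and *D830030K20Rik* (-0.47 to 0.63), none of which passed with all samples. The causes were not tested. With 2 samples a genotype and no counts, levels near 0 and absent genes cannot be told apart.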
